A study of Mus musculus with 13 samples.

Results

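The comparison set the hearts of untreated R502W mice against the hearts of untreated wild-type (WT) mice. It took the 4 libraries labelled R502W control and the 5 labelled WT control, which are 9 of the 13 libraries of the series. R502W is a substitution in cardiac myosin-binding protein C, which Mybpc3 encodes. The other 4 libraries came from R502W mice given the cardiac myosin inhibitor mavacamten (2.5 mg/kg/day in drinking water over 21 weeks), and they entered only the estimate of the spread. Whole hearts were stored in RNAlater and profiled as poly(A)-selected, strand-specific libraries. The design text put the mice at 24 weeks, whereas the extraction protocol spoke of hearts at 3 and 18 weeks, so the age of a given library is uncertain. The sources used here give no strain, zygosity, sex or hour of collection. Each library has a sample number and a library name with an ID of its own, but the labels do not say that these IDs stand for separate mice. The p-values below therefore speak of the spread among these libraries, which may be technical.

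Cardiac myosin-binding protein C lies along the thick filament and holds myosin heads back from actin, and changes in its gene are a frequent cause of hypertrophic cardiomyopathy, a thickening of the ventricular wall with stiff, strongly contracting muscle. Under load or disease the adult mouse ventricle raises transcripts of its fetal program: the slow β-myosin heavy chain, skeletal α-actin and the natriuretic peptides. Strain sensors at the Z-disc, the plate that anchors the thin filaments, take part in the same response, while growth, matrix and fuel genes shift around them. Levels below are CPM, a share of the counts of a library, on library sizes scaled by TMM, edgeR's trimmed mean of M-values, and fold changes are edgeR's log2 estimates of R502W over WT, ± SE. A gene is said to have risen or fallen where its edgeR adjusted p was under 0.05. Values per library are listed in the order of the sample numbers in the labels, WT control 1 to 5 and R502W control 1 to 4.

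Some libraries stood apart before any comparison. Total expected counts ran from 15350622 to 19361103 in the 9 libraries. On the first principal component, which held 41.9% of the variance, WT control 2 lay at -82.7 and WT control 3 at -39.8, while the other 3 WT libraries lay between -7.41 and 12.9 and the R502W libraries between 19.2 and 38.7. WT control 2 held 685 CPM of T and B lymphocyte markers in sum, against 16.5 to 216 CPM in the other WT libraries. The R502W libraries held 20.2 to 27.2 CPM of them. Markers of thymocytes, the immature T cells of the thymus, summed to 276 CPM in WT control 2, against at most 5.13 CPM in each other library. Airway secretory markers summed to 784 CPM in WT control 2 and 1262 CPM in WT control 3, against at most 7.92 CPM in each other library of the comparison. The atrial growth factor Bmp10 was at 8.33 CPM in WT control 3 and 1.57 CPM in R502W control 1, against 307 to 672 CPM in the other 7 libraries. Named genes in which WT control 2 lay far from the other WT libraries, by the search described at the end, are therefore given with and without it. Log2 fold changes of other genes also moved without it. Those of Hspa4l, Kdr and Notch1 went down to 0.50, 0.59 and 0.44, and those of Nppb and Arntl went up to 2.12 and 2.72.

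In all, 1294 genes rose and 562 fell among 15000 tested, which is 8.63% and 3.75% of them. The median change over all genes tested was -0.01 on the log2 scale. Most changes were small: the median gene called higher was 1.46-fold up and the median gene called lower was 1.40-fold down. At least 2-fold changes were found in 169 genes that rose and 83 that fell, and at least 4-fold changes in 31 and 26. The values of all R502W libraries lay above those of all WT libraries in 1199 of the genes called higher, and below them in 467 of the genes called lower. Such separation was found in 12.3% and 5.45% of all genes tested. The share of calls that were higher, 69.7%, depended on the scaling of the libraries, and was 60.3% with RLE factors and 55.0% with upper quartile factors. With DESeq2, which has its own model and test besides its own scaling, it was 57.3%. Leaving out R502W control 1, 2 or 3 brought the count of higher genes to 809, 603 or 706. The count of lower genes was 231, 263 or 208 without these libraries, and 353 without R502W control 4. With WT control 2 and 3 and R502W control 1 left out together, 569 genes rose and 253 fell.

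**Figure D1:**
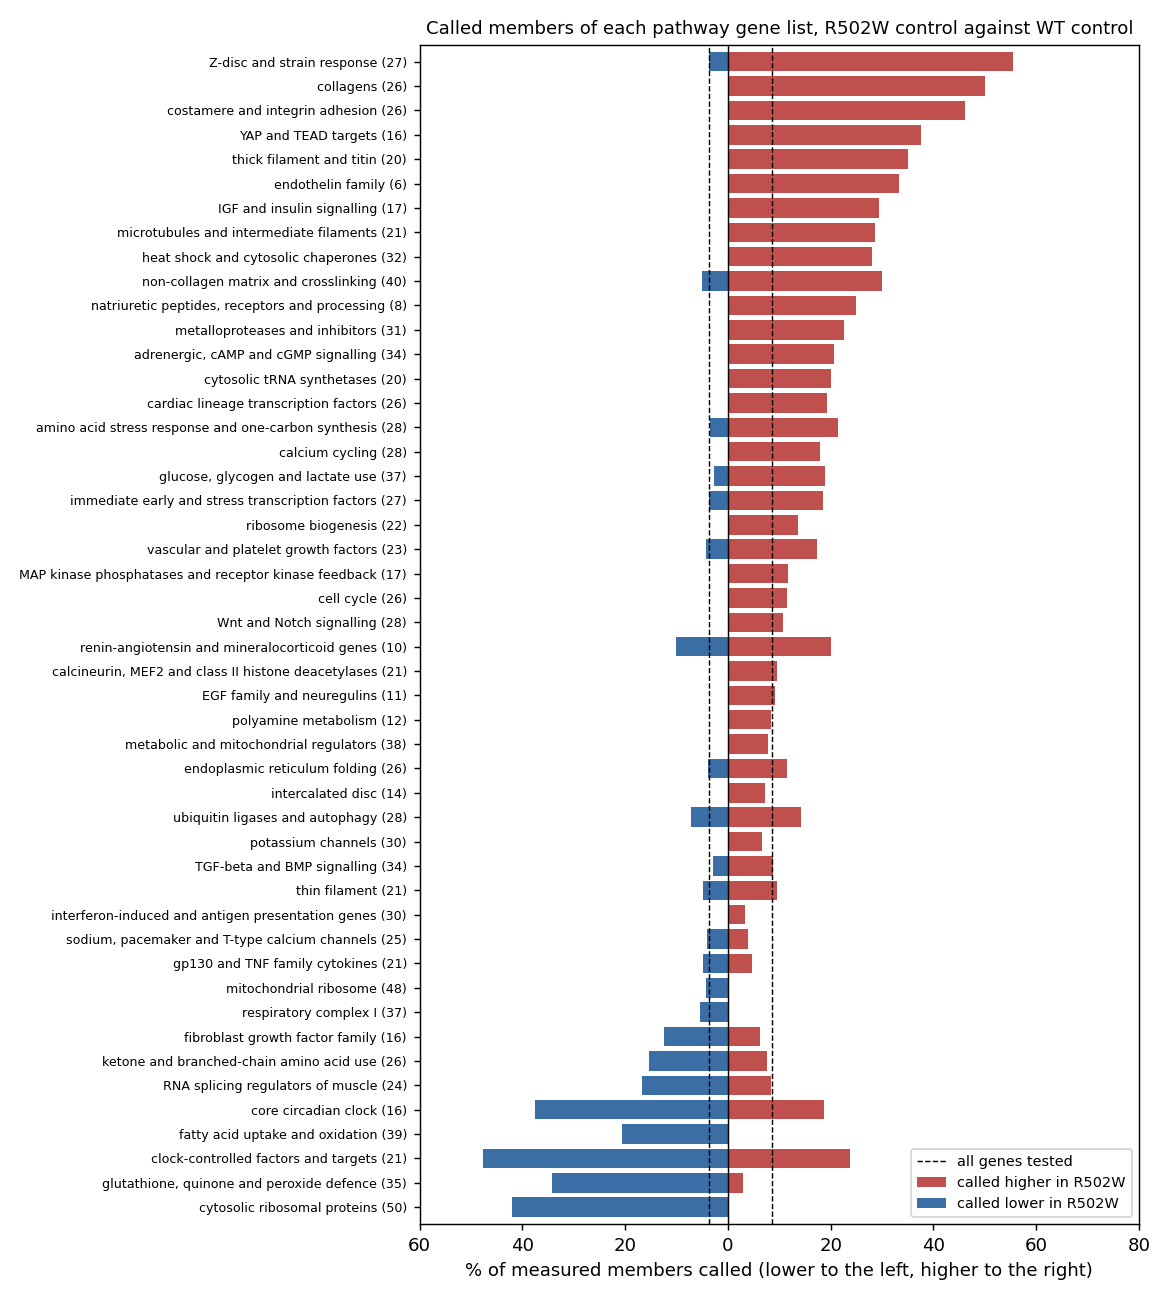
Share of the measured members of each pathway gene list, cell type marker lists not included, that edgeR called higher (red, to the right) or lower (blue, to the left) in R502W control against WT control. The number of measured members stands in parentheses, and the dashed lines mark the shares over all genes tested, 8.63% and 3.75%. Z-disc genes, collagens and costamere genes have the highest shares to the right, and clock targets and cytosolic ribosomal proteins the highest shares to the left.

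The thick filament held one of the largest changes. Myh7 (ENSMUSG00000053093, chromosome 14, 54970684 to 54994626), the slow β-myosin heavy chain, stood at 158, 167, 114, 206 and 208 CPM in WT and at 1877, 1716, 1941 and 1536 CPM in R502W hearts. Every R502W heart lay far above every WT heart. The log2 fold change was 3.37 ± 0.29 (edgeR adjusted p = 2.9e-05). Its neighbour Myh6 (chromosome 14, 54941921 to 54966927), the fast α-myosin heavy chain of the adult mouse ventricle, was at 27563, 18136, 20988, 24542 and 26258 CPM in WT and 32515, 33257, 35106 and 31862 CPM in R502W hearts. These values did not overlap either, but the difference of 0.50 ± 0.16 did not pass the test (edgeR adjusted p = 0.057). Per kilobase of exonic sequence, Myh7 made up 0.569% ± 0.128 of the sum of both chains in WT (SD, n = 5) and 3.99% ± 0.301 in R502W hearts (n = 4). α-Myosin thus remained the main transcript in each of the 9 hearts, with Myh7 at no more than 4.31% of the sum. The sequences of both genes are alike, so reads shared between them were divided by the estimate of RSEM and the smaller share carries that uncertainty.

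The myosin heavy chain genes carry microRNAs of one family in their introns, and their mature forms are shown because the host transcripts were measured here. The sequences are from RefSeq on GRCm38.p6, with the seed, bases 2 to 8, in capitals.
mmu-miR-208a-3p (Myh6, chr14:54949072-54949093, minus strand): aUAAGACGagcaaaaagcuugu
mmu-miR-208b-3p (Myh7, chr14:54975710-54975731, minus strand): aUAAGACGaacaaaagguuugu
mmu-miR-499-5p (Myh7b, chr2:155622893-155622913, plus strand): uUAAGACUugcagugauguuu
The seeds of miR-208a-3p and miR-208b-3p are identical, and that of miR-499-5p is not the same as theirs. Poly(A) libraries do not measure mature microRNAs, so only the hosts can be described. The third host, Myh7b, another slow-type heavy chain, went from 74.9, 49.3, 42.7, 53.2 and 53.7 CPM to 103, 109, 108 and 106 CPM. No R502W heart overlapped a WT heart, and Myh7b rose by 0.96 ± 0.15 on the log2 scale (edgeR adjusted p = 0.00145).

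Of 20 measured thick filament and titin genes, 7 rose and none fell, and the median change of the list was 0.24. Mybpc3 itself, the altered gene (chromosome 2, 91118144 to 91136516), read 2992, 2359, 2232, 2605 and 2375 CPM in WT and 3641, 3913, 4228 and 3810.2 CPM in R502W hearts. It rose by 0.63 ± 0.12 (edgeR adjusted p = 0.00462), and the groups did not overlap. With WT control 2 and 3 and R502W control 1 left out the value was 0.56 and no longer passed the test. A count per gene does not tell the R502W allele from the WT allele. Obsl1, a cytoskeletal adaptor of the myofibril, rose from 85.5 ± 9.13 CPM (SD, n = 5) to 127 ± 3.68 CPM (n = 4), which is 0.57 ± 0.09 on the log2 scale. Myom1, a protein of the M-band where thick filaments are linked, rose by 0.68 ± 0.12, and Ttn, the molecular spring titin, by 0.98 ± 0.20, a call lost with the length trend removed (0.10). Both were chosen after their values were seen.

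In the thin filament 2 of 21 measured genes rose and 1 fell, near the shares of all genes tested. Acta1 (ENSMUSG00000031972, chromosome 8, 123891769 to 123894751), skeletal α-actin, was at 120.3, 106, 174, 117 and 158 CPM in WT and 1368, 1463, 1230.5 and 1243 CPM in R502W hearts. Again every R502W heart lay far above every WT heart, and the log2 fold change was 3.30 ± 0.27 (edgeR adjusted p = 2.55e-05). Cardiac α-actin, Actc1, overlapped between the groups, with 7811 ± 1214 CPM in WT and 9949 ± 1449.7 CPM in R502W hearts (0.35 ± 0.16, edgeR adjusted p = 0.167). Per kilobase, Acta1 made up 1.82% ± 0.463 of the sum of these actins in WT (SD, n = 5) and 12.5% ± 2.37 in R502W hearts (n = 4), again with reads that the near-identical genes may share. Neb, nebulin, a ruler protein of the thin filament that is scarce in heart, rose from 8.32 ± 2.28 to 18.3 ± 2.31 CPM (1.14 ± 0.18). Slow skeletal troponin I, Tnni1, is the fetal isoform and moved the other way. It fell from 0.953, 2.10, 0.905, 1.31 and 0.819 CPM in WT to 0.327, 0.445, 0.225 and 0.621 CPM in R502W hearts (log2 fold change -1.57 ± 0.41, edgeR adjusted p = 0.0254). These are low counts, and the call was lost without R502W control 1, 2 or 3. The adult isoform Tnni3 was at 2813 ± 449 CPM and 2248 ± 249 CPM with overlap (-0.32 ± 0.14, edgeR adjusted p = 0.138).

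The promoter of Acta1 is shown because the gene had one of the largest changes and its 300-base window, 250 bases before to 50 after the RefSeq start, held both motifs searched for muscle genes. They are the MCAT element CATTCC, which TEAD factors recognise, and the CArG box, which serum response factor recognises. Both strands were searched, and motifs are in capitals.
Acta1 (chr8:123894801-123894863, minus strand, GRCm38.p6): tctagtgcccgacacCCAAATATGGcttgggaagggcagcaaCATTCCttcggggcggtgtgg
Myh7 (chr14:54994807-54994842, minus strand): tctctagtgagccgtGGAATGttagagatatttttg
Nppb (chr4:147985780-147985815, plus strand): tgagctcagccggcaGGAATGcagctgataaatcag
Ankrd1 (chr19:36119947-36120069, minus strand): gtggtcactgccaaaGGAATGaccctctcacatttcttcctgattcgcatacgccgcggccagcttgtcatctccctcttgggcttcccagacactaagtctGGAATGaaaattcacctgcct
In Myh7, Nppb and Ankrd1 the element lies on the other strand and reads GGAATG. Among the 24 sarcomere and Z-disc genes called higher, 20 had a promoter in the RefSeq table, 8 of these held CATTCC and 2 held a CArG box. A gene counted where any of its promoters held the motif. Over all 27025 genes with a promoter the shares were 16.6% and 1.81%. Promoters of sarcomere and Z-disc genes that were not called higher were not counted. These shares therefore cannot show whether a motif goes with a rise, which was not tested. A match is a description of the window and shows no binding.

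**Figure D2:**
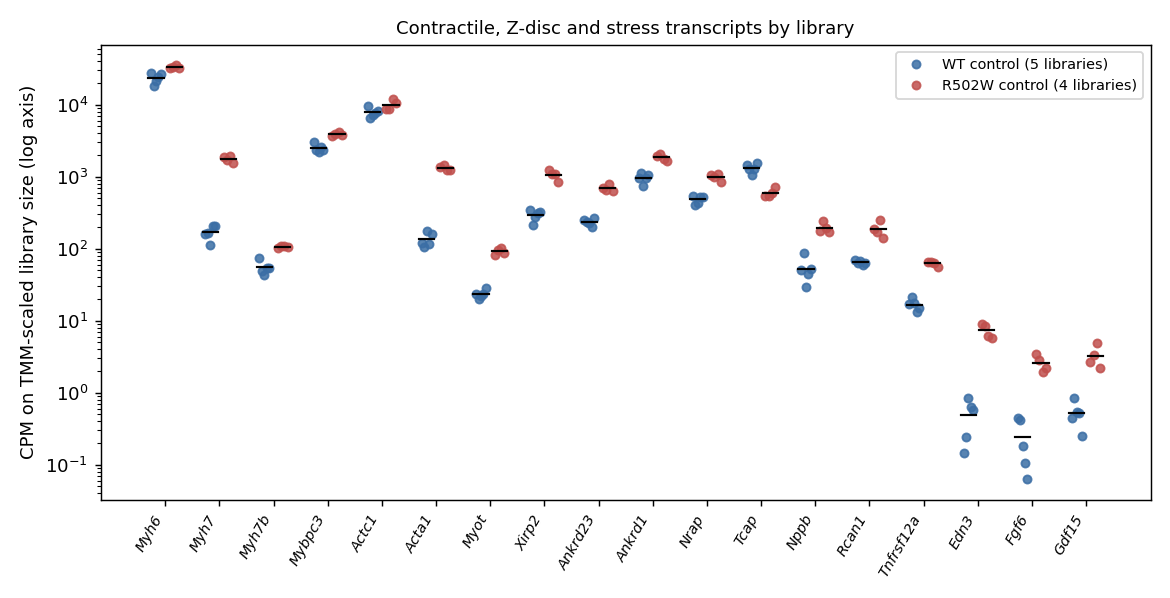
Level of each gene in each library, in CPM on TMM-scaled library size (log axis). Blue points are the 5 WT control libraries, red points the 4 R502W control libraries, and black lines the group means. Myh7 and Acta1 shift by about the same distance, Tcap moves down, and Edn3, Fgf6 and Gdf15 start below 1 CPM in every WT heart.

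Z-disc and strain-response genes had the highest share of risen members of any list: 15 of 27 measured genes rose and 1 fell, with a median change of 0.43. With WT control 2 and 3 and R502W control 1 left out 9 of the 27 rose, a lower share than the 9 of 26 collagens in that fit. Myot, myotilin, which crosslinks actin at the Z-disc, was at 23.5, 20.2, 22.3, 23.4 and 28.4 CPM in WT and 81.8, 95.4, 102 and 87.5 CPM in R502W hearts. The ranges were far apart and narrow within each group (log2 fold change 1.96 ± 0.16, edgeR adjusted p = 2.55e-05). Xirp2, an actin-binding repeat protein of growing and stressed myofibrils, went from 340.1, 212, 275, 312 and 323 CPM to 1250.0, 1091, 1073 and 842 CPM. Its lowest R502W heart lay well above its highest WT heart, and it rose by 1.86 ± 0.15 (edgeR adjusted p = 2.55e-05). Ankrd23 and Ankrd1 are muscle ankyrin repeat proteins that bind titin and also enter the nucleus. Ankrd23 went from 252, 237, 226, 198 and 270.1 CPM to 689, 659, 801 and 632 CPM (1.55 ± 0.13, edgeR adjusted p = 2.55e-05). Ankrd1 was already abundant in WT hearts at 966, 1121, 734, 942 and 1058 CPM and reached 1962, 2056, 1782 and 1622 CPM (0.94 ± 0.18, edgeR adjusted p = 0.00525). Nrap, an anchoring protein of forming myofibrils, rose from 483 ± 60.9 to 1002 ± 107 CPM (1.05 ± 0.10).

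The single Z-disc gene that fell was Tcap, telethonin, the cap that joins the ends of titin molecules. It stood at 1471, 1288, 1069, 1258 and 1549 CPM in WT and 540.1, 544, 599 and 720.2 CPM in R502W hearts, without overlap, a fall of 1.14 on the log2 scale ± 0.16 (edgeR adjusted p = 0.00109). With the length trend removed the fall was 0.99. Myot, Xirp2, Ankrd23, Nrap, Ankrd1 and Tcap kept their calls in each of the 13 runs that left out 1 library.

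At the costamere, where the Z-disc meets the cell membrane, 12 of 26 measured genes rose and none fell, with a median of 0.28. Plec, plectin, a crosslinker of the cytoskeleton, was at 232, 178, 182, 245 and 251 CPM in WT and 485, 486, 533 and 452 CPM in R502W hearts (1.17 ± 0.11, edgeR adjusted p = 6.55e-05). Sgcd, δ-sarcoglycan of the dystrophin complex, read 8.43, 3.60, 8.75, 10.1 and 9.45 CPM in WT and 16.9, 21.4, 17.1 and 15.3 CPM in R502W hearts. WT control 2 was the lowest heart, and without it the log2 fold change went from 1.13 ± 0.22 to 0.91. Itga5, the fibronectin receptor subunit, rose from 48.3 ± 2.31 to 63.8 ± 5.98 CPM (0.40 ± 0.08), and Tln1, talin, which links integrins to actin, from 190.5 ± 13.2 to 262 ± 21.0 CPM (0.46 ± 0.08). The call of Tln1 was lost with the length trend removed (0.23). The count of risen costamere genes was 6 without R502W control 2, and 7 with the length trend removed.

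Among microtubule and intermediate filament genes 6 of 21 rose and none fell. Kif5b, the heavy chain of the transport motor kinesin, was at 96.7, 44.5, 87.2, 101 and 93.3 CPM in WT and 201, 199, 201 and 163 CPM in R502W hearts. It rose by 1.18 ± 0.18, and by 0.98 without WT control 2, which was the lowest of the 9 hearts. Map4, a microtubule-associated protein, rose from 316 ± 46.2 to 497 ± 40.7 CPM (0.65 ± 0.12), and Synm, synemin, from 15.4 ± 1.31 to 24.4 ± 3.09 CPM (0.66 ± 0.13). Vash1, a tubulin carboxypeptidase that removes the terminal tyrosine of α-tubulin, read 4.91, 4.14, 6.58, 6.77 and 5.80 CPM in WT and 10.97, 10.6, 16.7 and 11.1 CPM in R502W hearts (1.13 ± 0.25, edgeR adjusted p = 0.0122). At the intercalated disc, which joins neighbouring myocytes, 1 of 14 genes rose (7.14%, against 8.63% of all genes tested). It was desmoplakin, Dsp, from 1000.4 ± 258 to 1611 ± 148 CPM (0.69 ± 0.19, edgeR adjusted p = 0.0299). The call of Dsp was lost in 5 left-out runs, those without WT control 3, R502W control 1, 2 or 3 or R502W mavacamten 2, and with the length trend removed.

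The natriuretic peptides, hormones that the strained heart secretes, differed from each other. Nppb (ENSMUSG00000029019, chromosome 4, 147985788 to 147987205), which encodes the B-type peptide, was at 50.0, 86.6, 29.7, 44.8 and 52.2 CPM in WT and 177, 243, 192 and 173 CPM in R502W hearts. WT control 2 was the highest WT heart and still lay well below every R502W heart, and the log2 fold change was 1.90 ± 0.28 (edgeR adjusted p = 0.00133). Nppa (chromosome 4, 148000722 to 148002079), the atrial peptide, was at 2024, 4711, 3087, 2932 and 3206 CPM in WT and 3523, 4950.1, 2655 and 2871 CPM in R502W hearts, with overlap: R502W control 2 lay above every WT heart and WT control 1 below every R502W heart (0.13 ± 0.26, edgeR adjusted p = 0.773). Atrial tissue makes most Nppa of the adult heart. The sum of 12 atrial markers ran from 4226 to 8915 CPM in WT and from 4542 to 8907 CPM in R502W hearts. Nppa is itself among the 12, with 2024 of 4226 CPM in WT control 1 and 4950 of 8907 CPM in R502W control 2. The sum thus gives no measure of atrial content apart from Nppa. None of the 12 markers, Nppa included, was called, and the part of atrial content in the values of Nppa was not tested. Furin, a protease that processes pro-peptides, rose by 0.34 ± 0.08 (edgeR adjusted p = 0.0126), a call lost without R502W control 2 and with the length trend removed (0.15).

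Calcineurin is a calcium-activated phosphatase of hypertrophic signalling, and Rcan1 is both its inhibitor and a transcript it induces. Rcan1 was at 70.5, 63.7, 68.3, 58.6 and 63.8 CPM in WT and 187, 168, 249.7 and 139 CPM in R502W hearts, spread widely but without overlap (1.52 ± 0.16, edgeR adjusted p = 0.000117). It was 1 of 2 members of the list of 21 calcineurin, MEF2 and histone deacetylase genes that rose. That share, 9.52%, was near the 8.63% of all genes tested. Dusp8, a phosphatase of stress-activated kinases, rose from 22.0 ± 3.96 to 39.0 ± 3.72 CPM (0.83 ± 0.13), as 1 of 2 risen members of 17 kinase feedback genes. Of 27 immediate early and stress transcription factors 5 rose and 1 fell. Egr2 rose from 0.989 ± 0.431 to 2.78 ± 0.657 CPM (1.47 ± 0.32) and Sox4 from 18.6 ± 4.41 to 34.9 ± 6.04 CPM (0.91 ± 0.20), the latter not without R502W control 2. Fos read 3.96, 5.76, 3.98, 5.88 and 5.67 CPM in WT and 34.3, 18.5, 4.78 and 29.8 CPM in R502W hearts, where R502W control 3 lay within the WT range. Its call (edgeR adjusted p = 0.0375) was lost in 8 of 13 left-out runs, those without any 1 of the WT libraries or without R502W control 1, 2 or 4. The list held 3 risen members without any 1 of the WT libraries or without R502W control 1 or 4, and 2 without R502W control 2.

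TEAD factors with YAP, and serum response factor with myocardin, turn on muscle and growth genes through the MCAT and CArG motifs shown above. Of 16 measured YAP and TEAD genes 6 rose and none fell, with a median of 0.14. Ccn1, a secreted target of YAP, was at 30.2, 41.6, 35.8, 43.4 and 40.7 CPM in WT and 94.1, 81.8, 81.7 and 70.4 CPM in R502W hearts (1.10 ± 0.17, edgeR adjusted p = 0.00173). Tead1 itself read 138, 63.5, 129, 141 and 148 CPM in WT and 263, 251, 295 and 218 CPM in R502W hearts, with WT control 2 far below the other hearts. It rose by 1.05 ± 0.19, and by 0.85 without that library. Amotl1, an angiomotin that binds YAP, rose by 0.78 ± 0.14, and by 0.62 without WT control 2. Srf, serum response factor, was at 81.5, 76.1, 72.7, 79.3 and 80.2 CPM in WT and 105, 107, 119 and 109 CPM in R502W hearts (0.50 ± 0.08, edgeR adjusted p = 0.00226). Its coactivator Myocd rose by 0.96 ± 0.22, and by 0.74 without WT control 2. Srf, Tead1 and Myocd were among the 5 of 26 cardiac lineage transcription factors that rose. The YAP and TEAD list held 3 risen members without R502W control 2 or 3, and the lineage factors 3 without R502W control 1 or 2.

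Insulin and insulin-like growth factors drive growth and glucose uptake of the myocyte, and 5 of 17 measured genes of this signalling rose. Irs1, the adaptor below the insulin receptor, read 12.6, 3.18, 12.3, 12.1 and 10.8 CPM in WT and 33.3, 22.9, 26.0 and 20.9 CPM in R502W hearts. WT control 2 was again the lowest, and Irs1 rose by 1.34 ± 0.28 with it and by 1.07 without it. The receptor Insr rose from 119 ± 23.9 to 192 ± 16.3 CPM (0.68 ± 0.13, or 0.53 without WT control 2). The count of 5 was 2 or 3 in 10 of the 13 left-out runs, all but those without WT control 2, 4 or 5, and it was 2 with the length trend removed.

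Secreted factors and their receptors included the largest relative changes of low transcripts. Edn3 (ENSMUSG00000027524, chromosome 2, 174760619 to 174784042), an endothelin, a vasoactive peptide, was at 0.147, 0.240, 0.845, 0.630 and 0.567 CPM in WT and 8.88, 8.50, 6.08 and 5.75 CPM in R502W hearts. Its log2 fold change was 3.86 ± 0.36 (edgeR adjusted p = 5.37e-05), from a level near 0.486 CPM where few reads set the WT mean. The endothelin receptor Ednra rose by 0.50 ± 0.14 (edgeR adjusted p = 0.034), a call lost in 10 of 13 left-out runs and with the length trend removed. Those 10 runs left out WT control 1, 2 or 5, each of the R502W control libraries, or R502W mavacamten 1, 2 or 3. Fgf6, a muscle fibroblast growth factor, went from 0.440, 0.420, 0.181, 0.105 and 0.0630 CPM to 3.40, 2.83, 1.91 and 2.23 CPM (3.41 ± 0.64, edgeR adjusted p = 0.00481). Fgf16, a growth factor made by cardiomyocytes, went the other way, from 19.1, 10.5, 9.42, 11.9 and 14.7 CPM to 4.96, 4.502, 7.54 and 9.06 CPM (-1.005 ± 0.29, edgeR adjusted p = 0.0374). That call was lost in 6 left-out runs, without WT control 1, 4 or 5 or R502W control 1, 2 or 3, and with the length trend removed.

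Gdf15, a stress hormone of the TGF-β family, was at 0.440, 0.840, 0.543, 0.525 and 0.252 CPM in WT and 2.68, 3.33, 4.89 and 2.18 CPM in R502W hearts (2.63 ± 0.43, edgeR adjusted p = 0.00211). It was 1 of 3 risen members among 34 TGF-β and BMP genes, of which 1 fell. These shares, 8.82% and 2.94%, were near the 8.63% and 3.75% of all genes tested. Tnfrsf12a, the receptor of the cytokine TWEAK, which growth and injury induce in muscle, was at 16.9, 21.2, 17.5, 13.2 and 14.8 CPM in WT and 64.7, 65.9, 63.2 and 55.3 CPM in R502W hearts. It rose by 1.90 ± 0.20 (edgeR adjusted p = 0.000165), the only riser among 21 gp130 and TNF family genes. Hbegf, a heparin-binding ligand of the EGF receptor, rose from 9.99 ± 0.629 to 16.8 ± 1.05 CPM with narrow groups (0.75 ± 0.11, edgeR adjusted p = 0.0013). Of 11 EGF and neuregulin genes it was the only one called (9.09%, near the 8.63% of all genes tested).

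Among 23 vascular and platelet growth factor genes 4 rose and 1 fell. Vegfa, the main growth factor of endothelial cells, was at 183, 113, 156, 171 and 167 CPM in WT and 288, 282, 321 and 274 CPM in R502W hearts (0.88 ± 0.12, edgeR adjusted p = 0.000683). Its receptor Kdr rose from 144 ± 28.2 to 238 ± 26.4 CPM (0.73 ± 0.15). The related placental growth factor, Pgf, fell from 5.79, 5.46, 4.83, 4.30 and 4.03 CPM to 1.76, 2.22, 2.93 and 2.07 CPM (-1.11 ± 0.20, edgeR adjusted p = 0.0045). Notch1, a receptor of vessel growth, rose by 0.57 ± 0.12, as 1 of 3 among 28 Wnt and Notch genes (10.7%, against 8.63% of all genes tested). Without WT control 5 the count of risen vascular factors was 7.

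Of 26 measured collagens, the fibre and sheet proteins of the matrix, 13 rose, none fell and 13 were not called, with a median of 0.58. The count was 9 with the length trend removed, and 9 with WT control 2 and 3 and R502W control 1 left out. Col4a1 and Col4a2, the collagen IV chains of the basement membrane around each myocyte, share a promoter region. Col4a1 read 219, 191, 260.0, 196 and 269.9 CPM in WT and 485, 455, 555 and 437 CPM in R502W hearts (1.09 ± 0.13, edgeR adjusted p = 0.000256). Col4a2 rose by nearly the same amount (0.96 ± 0.12). Col5a3, a chain of the fibril-organising collagen V, was at 13.4, 17.3, 17.3, 13.5 and 16.3 CPM in WT and 34.8, 33.8, 38.1 and 36.9 CPM in R502W hearts (1.204 ± 0.11, edgeR adjusted p = 4.19e-05). Col6a3, of the pericellular collagen VI, rose from 39.2 ± 9.24 to 79.0 ± 14.3 CPM (1.01 ± 0.16). Col1a1, of the main fibrillar collagen of scars, rose from 129 ± 27.0 to 221 ± 33.1 CPM (0.77 ± 0.16, edgeR adjusted p = 0.00892).

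**Figure D3:**
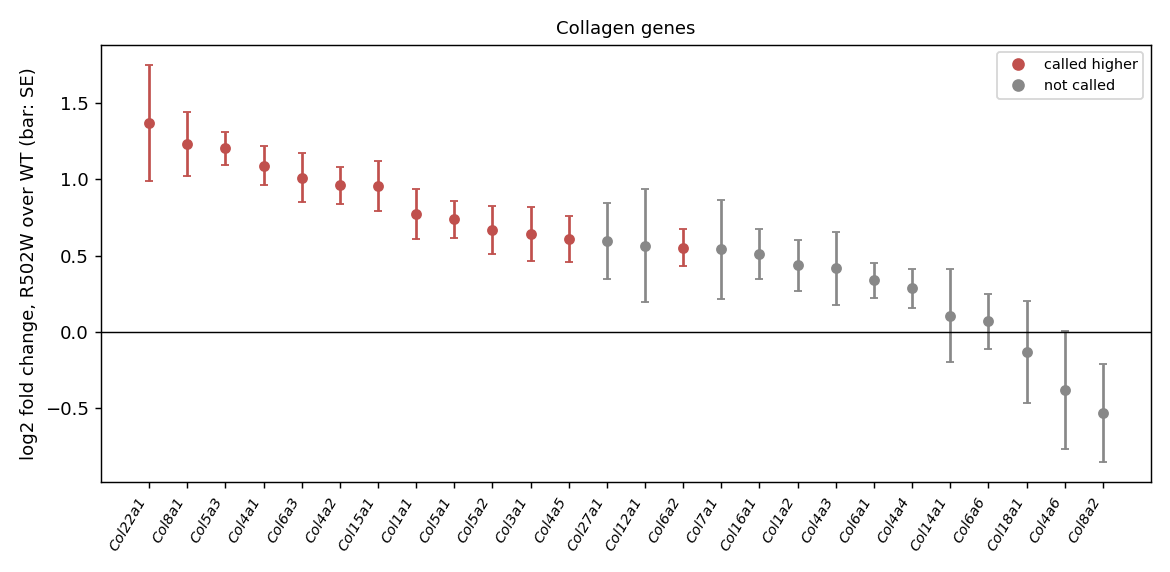
Log2 fold change of each measured collagen gene in R502W over WT control hearts, with the SE as bars, ordered by size. Red points were called higher (13 of 26) and grey points were not called; no collagen was called lower.

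Of 40 measured other matrix and crosslinking genes 12 rose and 2 fell. Enzymes and the chaperone that fold collagen in the endoplasmic reticulum were among them. P4ha1 and P4ha2, subunits of the collagen prolyl hydroxylase, rose by 0.77 ± 0.11 and 0.61 ± 0.12, and the collagen chaperone Serpinh1 by 0.66 ± 0.10. Serpinh1 stood at 144, 137, 154, 150.4 and 156 CPM in WT and 223, 237, 274 and 204 CPM in R502W hearts, without overlap. Hspg2, perlecan, a proteoglycan of basement membranes, rose from 442 ± 89.3 to 865 ± 135 CPM (0.97 ± 0.15). Efemp1, a fibulin, fell by 0.84 (edgeR adjusted p = 0.032). That call was lost without WT control 3 or 4, without each of the R502W control libraries, and with the length trend removed.

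Among proteases that remodel matrix and shed receptors 7 of 31 rose and none fell. Adam19, a membrane-bound sheddase, was at 19.5, 19.0, 31.2, 25.9 and 26.0 CPM in WT and 80.3, 91.4, 82.0 and 57.5 CPM in R502W hearts. The highest WT heart was far below the lowest R502W heart, and Adam19 rose by 1.68 ± 0.19 (edgeR adjusted p = 0.000197). Adamts4, a proteoglycan-cleaving protease, went from 0.220, 0.120, 0.181, 0.420 and 0.819 CPM to 3.00, 1.56, 3.77 and 2.80 CPM (2.95 ± 0.47, edgeR adjusted p = 0.00199). Adamts15 and the membrane collagenase Mmp14 rose by 0.83 ± 0.16 and 0.69 ± 0.12.

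Of the markers of activated fibroblasts 3 of 9 measured rose, and 1 of 12 general fibroblast markers did. Cilp, a matrix protein that loaded hearts raise, read 17.7, 12, 20.5, 16.2 and 30.9 CPM in WT and 52.2, 50.2, 88.2 and 46.1 CPM in R502W hearts, where R502W control 3 was highest (1.61 ± 0.32, edgeR adjusted p = 0.0066). Thbs4, a matricellular thrombospondin, rose from 7.11, 6.84, 6.16, 8.55 and 8.95 CPM to 23.7, 19.2, 26.3 and 23.8 CPM (1.63 ± 0.32). Meox1, a transcription factor of activated fibroblasts, rose by 1.02 ± 0.22 (edgeR adjusted p = 0.00997). With WT control 2 and 3 and R502W control 1 left out, 1 of the 9 activated markers rose, and the calls of Cilp and Thbs4 were lost. The fibroblast markers summed to 2896 to 3800 CPM in WT and 3033 to 3636 CPM in R502W hearts, with overlap. The activated set summed to 231 to 462 CPM and 292 to 403 CPM, also with overlap. Acta2, which is also a mural marker, supplied 113 to 276 CPM of the activated sum in WT and 75.0 to 181 CPM in R502W hearts. The overlap of that sum therefore does not describe the other activated markers. In bulk tissue a change in the number of cells of a type and a change in RNA per cell cannot be told apart.

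Genes of protein folding and synthesis moved in both directions. Of 32 measured heat shock and cytosolic chaperone genes 9 rose and none fell. Hsph1, a large HSP110 co-chaperone, was at 34.5, 31.9, 33.3, 34.3 and 29.8 CPM in WT and 71.2, 63.4, 56.4 and 54.2 CPM in R502W hearts (0.90 ± 0.10, edgeR adjusted p = 0.000209). Hsp90aa1, the inducible HSP90 that also assists myosin folding, went from 103, 115, 112, 109 and 83.8 CPM to 221, 199, 172 and 164 CPM (0.86 ± 0.13). Dnajb5 and Hspa4l rose by 0.57 ± 0.11 and 0.64 ± 0.13. In the endoplasmic reticulum 3 of 26 folding genes rose and 1 fell. These shares, 11.5% and 3.85%, were near the 8.63% and 3.75% of all genes tested. Hyou1, a chaperone of that compartment, rose by 0.75 ± 0.08 and the stress sensor Atf6 by 0.89 ± 0.13, whereas Herpud1, of the degradation arm, fell from 183, 192, 174, 185 and 178 CPM to 119, 126, 133 and 146 CPM (-0.48 ± 0.10). The muscle ubiquitin ligase adaptors Fbxo40 and Klhl40 rose by 0.88 ± 0.12 and 0.63 ± 0.11, as 2 of 4 risen among 28 ligase and autophagy genes, a count of 2 without R502W control 2 or 3.

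All 50 measured cytosolic ribosomal protein genes had a negative log2 fold change, and 21 of them fell, with a median of -0.36. Rpl15 read 164, 234, 165, 171 and 136 CPM in WT and 97.9, 85.4, 92.0 and 90.7 CPM in R502W hearts, with WT control 2 highest. It fell by 0.93 ± 0.13 (edgeR adjusted p = 0.000995), and by 0.83 without WT control 2. Rps12 and Rps6 fell by 0.61 and 0.62, and by 0.50 and 0.51 without WT control 2, the highest of the 9 hearts in Rps6. With the length trend removed 17 of the 50 fell, and the median was -0.27. The number that fell was 7, 8 and 12 without R502W control 1, 3 and 4. These genes have many processed copies in the genome, among which counting can split reads.

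Of 22 genes that build ribosomes 3 rose and none fell, a share of 13.6% against 8.63% of all genes tested, with a median of 0.11. With the length trend removed 2 rose and the median was 0.02. Rrp12, a factor of ribosome maturation and export, was at 18.6, 13.6, 13.9, 13.5 and 16.8 CPM in WT and 38.7, 34.8, 38.8 and 29.7 CPM in R502W hearts (1.22 ± 0.11, edgeR adjusted p = 4.39e-05). Ddx21, a nucleolar helicase, rose by 0.46 ± 0.07. Of 28 amino acid stress and one-carbon genes 6 rose and 1 fell, and 3 rose without R502W control 2. The amino acid transporters Slc38a2 and Slc7a5 rose by 0.67 ± 0.10 and 0.69 ± 0.15. Mthfd2, the mitochondrial enzyme of one-carbon metabolism that growing cells raise, went from 0.953, 3.18, 3.74, 2.68 and 2.39 CPM to 8.49, 8.06, 10.3 and 5.49 CPM (1.63 ± 0.29), and Mthfd1l, which acts next in the same compartment, fell from 2.27, 4.80, 3.14, 3.46 and 1.32 CPM to 0.784, 1.56, 0.675 and 0.880 CPM (-1.62 ± 0.37). The call of Mthfd1l was lost without R502W control 3. Cirbp and Rbm3, RNA-binding proteins that cold induces, fell by 0.42 and 0.62, the latter not without R502W control 1 or 3. The tRNA synthetases Aars and Eprs rose by 0.39 ± 0.07 and 0.48 ± 0.09, and both calls were lost with the length trend removed (0.18 and 0.07).

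Of 39 measured genes of fatty acid uptake and oxidation, the main fuel path of the adult heart, 8 fell and none rose, with a median of -0.22. Slc27a1, a fatty acid transporter, read 198, 239, 223, 212 and 237 CPM in WT and 150.0, 135, 133 and 171 CPM in R502W hearts (log2 fold change -0.59 ± 0.10, edgeR adjusted p = 0.00231). Acaa2, the last enzyme of mitochondrial β-oxidation, was at 981, 754, 803, 858 and 847 CPM and 578, 515, 556 and 593 CPM in the same order. It fell by 0.60, a call lost with the length trend removed (-0.46). The uncoupling protein Ucp2 and the thioesterase Acot1 fell by 0.87 and 0.72. Without R502W control 2 or 3 the number that fell was 4. Of 37 respiratory complex I genes 2 fell, and 36 had a negative value (median -0.18). The count that fell ran from 0 to 5 with 1 library left out, and it was 0 with WT control 2 and 3 and R502W control 1 left out. With the length trend removed neither call was kept and the median was -0.09.

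Glucose handling showed 7 risen and 1 fallen gene of 37 (4 risen without R502W control 3). A pair of enzymes that set the level of an activator of glycolysis, a fructose bisphosphate, moved in opposite directions. Pfkfb1, the liver and muscle form, fell from 22.5, 18.2, 14.5, 20.3 and 26.6 CPM to 7.38, 3.00, 6.47 and 7.66 CPM (-1.74 ± 0.29, edgeR adjusted p = 0.00263). Pfkfb2, the heart form, rose from 57.9, 30.2, 44.97, 57.2 and 51.1 CPM to 109.9, 107, 100.5 and 95.8 CPM (1.10 ± 0.16, edgeR adjusted p = 0.00137). Per kilobase, Pfkfb1 made up 43.5% ± 6.53 of their sum in WT (SD, n = 5) and 9.67% ± 3.37 in R502W hearts (n = 4). Ppp1r3c, which targets a phosphatase to glycogen, and Ugp2, which makes the glucose donor of glycogen, rose by 0.93 ± 0.15 and 0.54 ± 0.09. Ppp1r3c is also a risen member of the clock-controlled factors and targets below, so the limit on sampling time given there holds for it.

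Of 26 genes of ketone and branched-chain amino acid use 2 rose and 4 fell. The share that rose, 7.69%, was near the 8.63% of all genes tested, and 15.4% fell against 3.75% of all. Without WT control 5 or R502W control 3 the number that fell was 2, and without R502W control 1 or 2 it was 1. Bdh1, which oxidises β-hydroxybutyrate, went from 51.7, 48.3, 61.2, 38.7 and 56.0 CPM to 92.8, 104, 155 and 115 CPM (1.19 ± 0.22, edgeR adjusted p = 0.00433). The coactivator Ppargc1b rose from 11.1 ± 3.99 to 25.8 ± 4.10 CPM (1.22 ± 0.23, or 0.99 without WT control 2). It was 1 of 3 risen among 38 metabolic regulators (7.89%, near the share of all genes tested).

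Of 35 genes that detoxify peroxides, quinones and electrophiles 12 fell and 1 rose, with a median of -0.32. The glutathione transferases Gstm1 and Gstm5 are named first by their p-values. Gstm1 was at 214, 262, 244, 227 and 231 CPM in WT and 152, 158, 167 and 167 CPM in R502W hearts (log2 fold change -0.55 ± 0.08, edgeR adjusted p = 0.00127). Gstm5 fell by 0.51, the metal-binding metallothionein Mt1 by 0.60 and the cytosolic superoxide dismutase Sod1 by 0.45. The groups did not overlap in any of these 4 genes. Gstt2, another glutathione transferase, and Selenbp1, a selenium-binding protein that oxidises methanethiol, were among the 12 falls with the smallest p of all genes (-1.10 ± 0.13 and -0.68 ± 0.08). The transferase family has close paralogs, so the split of reads between members is uncertain.

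Calcium drives contraction, and 5 of 28 measured calcium cycling genes rose (3 without R502W control 2 or 3, and 3 with the length trend removed). Casq1, the skeletal calcium buffer of the sarcoplasmic reticulum, was at 6.97, 6.72, 6.28, 8.92 and 7.50 CPM in WT and 24.7, 19.1, 17.1 and 31.7 CPM in R502W hearts (1.67 ± 0.26, edgeR adjusted p = 0.00175). Jph2, junctophilin, which holds the release units together, rose from 334 ± 37.6 to 469.9 ± 42.1 CPM (0.49 ± 0.11). Ryr2, the calcium release channel, was at 1268, 534, 1022, 1202 and 1284 CPM in WT and 1875, 2027, 2092 and 1725 CPM in R502W hearts, with WT control 2 lowest. Its log2 fold change of 0.86 ± 0.22 (edgeR adjusted p = 0.021) went to 0.66 without WT control 2, and the call was lost without R502W control 2 or 3 and with the length trend removed (0.36). Asph rose by 0.44 ± 0.07 and was at 0.06 with that trend removed.

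Of 30 potassium channel genes 2 rose (6.67%, below the 8.63% of all genes tested). Kcnc1, a fast delayed rectifier known from neurons, went from 0.587, 0.660, 0.845, 1.42 and 1.13 CPM to 4.12, 4.61, 3.49 and 2.49 CPM (1.96 ± 0.28, edgeR adjusted p = 0.00103). Among 34 adrenergic, cAMP and cGMP genes 7 rose and none fell. Grk5, a kinase that desensitises β-adrenergic receptors, rose from 38.7, 33.2, 39.5, 42.0 and 41.6 CPM to 60.9, 57.0, 53.7 and 56.7 CPM (0.55 ± 0.08, edgeR adjusted p = 0.00156), and Popdc3, a cAMP-binding membrane protein, by 0.72 ± 0.12. The count of 7 was 4 without WT control 3, R502W control 1 or 4 or R502W mavacamten 1, 2 or 3, and 2 without R502W control 2 or 3. The angiotensin receptor Agtr1a fell from 43.1, 31.1, 30.2, 38.8 and 40.7 CPM to 20.7, 18.2, 23.6 and 25.1 CPM (-0.75 ± 0.15, edgeR adjusted p = 0.00622).

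The circadian clock runs in heart cells as a loop in which CLOCK or NPAS2 with BMAL1, the product of Arntl, switch on Per, Cry and output genes through E-boxes, and the products of Per and Cry then shut them off. Of 16 core clock genes 3 rose and 6 fell, and of 21 clock-controlled factors and targets 5 rose and 10 fell. The activators Arntl, Npas2 and Clock rose. Arntl read 2.57, 6.96, 4.95, 2.31 and 2.39 CPM in WT and 22.1, 24.5, 20.5 and 16.1 CPM in R502W hearts (2.43 ± 0.28, edgeR adjusted p = 0.000256). Npas2 went from 1.47, 2.34, 3.68, 1.99 and 2.27 CPM to 8.56, 8.89, 5.51 and 7.51 CPM (1.69 ± 0.23). Clock went from 36.6, 18.6, 36.7, 37.9 and 34.3 CPM to 67.3, 68.5, 61.7 and 64.2 CPM, with WT control 2 lowest (1.00 ± 0.16, or 0.81 without it). No R502W heart overlapped a WT heart in any of the 3.

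The Per genes, Cry2 and several outputs of the loop fell, although 7 of the 16 core genes and 6 of the 21 targets were not called. Per2 was at 28.2, 20.9, 23.5, 33.6 and 27.4 CPM in WT and 7.64, 7.78, 8.66 and 9.79 CPM in R502W hearts (log2 fold change -1.65 ± 0.19, edgeR adjusted p = 0.000218). Per3 fell by 1.15, Per1 by 1.56 and Cry2 by 0.48. Within the R502W group Per1 stood at 21.2, 19.3, 14.01 and 44.6 CPM, so that R502W control 4 lay closer to the WT values of 82.2, 64.3, 66.6, 88.6 and 65.3 CPM than the other 3 did. Dbp, an output transcription factor that binds D-boxes, was at 184, 191, 153, 185 and 204 CPM in WT and 37.4, 32.5, 33.2 and 58.2 CPM in R502W hearts, again with R502W control 4 highest (-2.18 ± 0.19, edgeR adjusted p = 3.33e-05). Its relative Tef fell by 0.72. Nfil3, which competes with them for the D-box, rose from 3.08, 3.24, 3.32, 3.46 and 4.10 CPM to 11.3, 11.6, 16.3 and 11.6 CPM (1.88 ± 0.15, edgeR adjusted p = 2.55e-05).

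Ciart (ENSMUSG00000038550, chromosome 3, 95878503 to 95882251), a repressor of CLOCK and BMAL1, had the largest fall of the list and the smallest adjusted p of any gene that fell. It was at 21.3, 14.9, 10.99, 16.7 and 16.3 CPM in WT and 2.09, 1.56, 1.86 and 3.16 CPM in R502W hearts, with the groups far apart. The log2 fold change was -2.88 ± 0.23 (edgeR adjusted p = 2.55e-05). Tspan4, a tetraspanin of the target list, fell from 44.5, 59.3, 40.3, 43.4 and 44.1 CPM to 18.9, 17.5, 17.8 and 22.7 CPM (-1.27 ± 0.15, or -1.20 without WT control 2). The clock targets held 3 risen members without R502W control 1, 2 or 3. Time of day sets the level of all these genes, and with no collection times in the sources used here a difference in sampling time and a difference between the genotypes cannot be told apart.

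Promoter stretches of fallen clock genes are shown because the loop acts on them through the E-box CACGTG and the D-box, searched as TTATGTAA and TTACGTAA on both strands. The stretches are from RefSeq on GRCm38.p6, with motifs in capitals.
Ciart (chr3:95882252-95882359, minus strand): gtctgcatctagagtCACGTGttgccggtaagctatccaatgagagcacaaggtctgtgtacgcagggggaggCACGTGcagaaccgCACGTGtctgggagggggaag
Per1 (chr11:69098768-69098803, plus strand): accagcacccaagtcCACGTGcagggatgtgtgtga
Tef (chr15:81802531-81802566, plus strand): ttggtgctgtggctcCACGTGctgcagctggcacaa
Bhlhe41 (chr6:145865553-145865588, minus strand): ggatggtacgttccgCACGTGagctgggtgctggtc
Per3 (chr4:151044801-151044885, minus strand): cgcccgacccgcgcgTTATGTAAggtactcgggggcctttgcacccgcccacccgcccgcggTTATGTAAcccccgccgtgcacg
Ciart held 3 E-boxes, at 116, 58 and 44 bases before its start, and Per3 held 2 D-boxes. Of the 16 clock genes called lower, 13 had a promoter in the table, 6 of these held an E-box and 2 a D-box. Of 7 clock genes called higher that had a promoter there, 1 held an E-box. Over all 27025 genes with a promoter 8.09% held an E-box and 1.23% a D-box. The lists were drawn up from genes of the clock loop and its outputs, and promoters of uncalled clock genes were not counted. These shares therefore cannot show whether a motif goes with the direction of change, which was not tested. Bhlhe41, a repressor that itself binds E-boxes, fell by 0.80 (edgeR adjusted p = 0.00231).

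**Figure D4:**
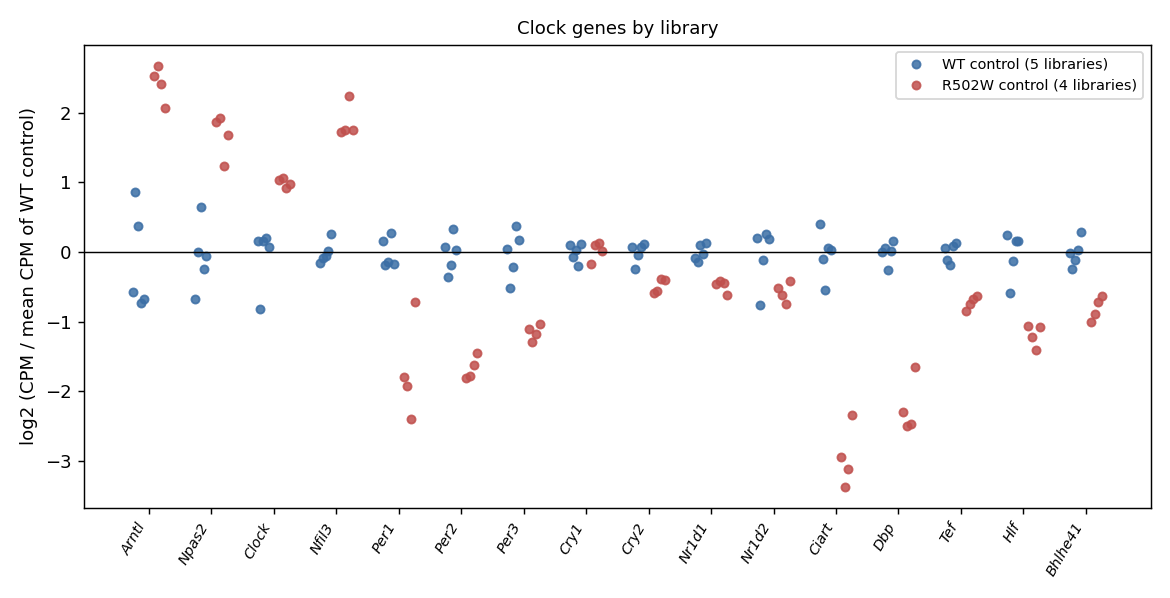
Clock genes in each library, as log2 of CPM over the mean CPM of the WT control libraries. Blue points are the 5 WT control libraries and red points the 4 R502W control libraries. The activators Arntl, Npas2 and Clock and the D-box repressor Nfil3 lie above 0 in R502W hearts, and Per, Dbp, Tef, Hlf and Ciart below 0.

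Other genes were named by rank alone. Ehbp1l1, a protein that links membranes to actin, was among the 12 rises with the smallest p, at 182, 158, 148, 154 and 179 CPM in WT and 314, 318, 335 and 296 CPM in R502W hearts (0.94 ± 0.08, edgeR adjusted p = 2.55e-05). Leo1, a subunit of the PAF1 elongation complex, was another, at 6.53, 7.92, 7.002, 7.66 and 8.45 CPM and 15.9, 17.3, 16.4 and 15.2 CPM (1.11 ± 0.10). Lack of overlap was a condition of the ranking, so it is no separate result for these genes. The scaffold Cnksr1 (2.15 ± 0.23), the kelch protein Klhl34 (1.91 ± 0.27) and the secreted spondin Spon2 (1.91 ± 0.28) were among the 12 largest rises. Cnksr1 went from 2.77 ± 0.699 to 12.3 ± 1.26 CPM.

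Among the falls with the smallest p, Inmt, an enzyme that methylates indoles, went from 23.9, 33.9, 39.7, 29.3 and 32.8 CPM to 12.1, 11.3, 11.9 and 9.89 CPM (-1.50 ± 0.16, edgeR adjusted p = 0.000151). Lgals4, a galectin best known from gut, fell by 1.198, from 52.3 ± 8.14 to 22.8 ± 3.76 CPM. Stard3, a cholesterol carrier of late endosomes, Ano10 and Mlf1 had smaller falls (-0.67 ± 0.07, -0.65 ± 0.08 and -0.70 ± 0.08) with SEs of at most 0.08.

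Cell cycle genes had a median change of -0.58 with 3 of 26 risen and none fallen. With WT control 2 and 3 and R502W control 1 left out the median was 0.16, so its sign rests on those libraries. Cdkn1a, the inhibitor p21, was at 9.82, 10.4, 11.6, 6.93 and 10.2 CPM in WT and 23.1, 23.0, 22.0 and 22.7 CPM in R502W hearts, without overlap (1.21 ± 0.18, edgeR adjusted p = 0.00137). Cdkn1a is also a risen member of the list of clock-controlled factors and targets, so the limit on sampling time given there holds for it. Cyclin D2, Ccnd2, rose from 82.1 ± 16.1 to 128 ± 7.23 CPM (0.64 ± 0.13).

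Markers of cell types other than the cardiomyocyte were mostly not called. Ventricular myocyte markers summed to 43082 to 61198 CPM in WT and 57287 to 64726 CPM in R502W hearts, the highest sum of any marker list in each of the 9 libraries. Of the 10 only Ryr2 was called. Endothelial markers summed to 1306 to 1551 CPM and 1459 to 1685 CPM, with 3 of 12 risen, among them Kdr and the tight junction protein Cldn5 (0.70 ± 0.15). Of the mural markers, the pericyte proteoglycan Cspg4 rose by 0.66 ± 0.12, as 1 of 2 of 12. Another 5 of the 12 had negative values, none of them called. The mural markers summed to 766 to 1514 CPM in WT and 1078 to 1340 CPM in R502W hearts, with overlap. None of 12 macrophage, 9 adipocyte, 9 mesothelial and 5 erythroid markers was called. The adipocyte markers summed to 37.7 to 563 CPM in WT and 23.2 to 482 CPM in R502W hearts, with the highest sums in WT control 3 and R502W control 1. The 9 mesothelial markers all had negative values (median -0.92), and they summed to 76.8 to 275 CPM in WT, highest in WT control 2, and 52.1 to 110.1 CPM in R502W hearts. The part of such tissue in other changes was not tested. Sox10, of Schwann cells, fell by 1.21 (edgeR adjusted p = 0.0218), a call lost without R502W control 1, 2 or 3.

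Several of the largest falls came from genes of other tissues in WT control 2 and 3. Cyp2f2, a cytochrome of airway club cells, read 1.32, 107, 207, 1.63 and 1.39 CPM in WT and 0.588, 0.333, 0.169 and 0.777 CPM in R502W hearts. Its log2 fold change of -7.07 ± 2.05 (edgeR adjusted p = 0.0384) rests on those 2 WT hearts, since the other 3 were at most 1.63 CPM, and the call was lost without either of them. It was also lost without each R502W control library. Scgb1a1, a club cell secretion, and Bpifa1, an airway defence protein, were at 2.13, 246, 349, 1.47 and 0 CPM and 3.96, 400.0, 652, 2.62 and 0.0630 CPM in WT, with the same 2 hearts high, and overlapped with R502W hearts. Their calls (edgeR adjusted p = 0.0353 and 0.0329) were lost without WT control 3 and without each R502W control library. The alveolar surfactant gene Sftpc was at 0 in all 9 libraries. The immunoglobulin gene Ighg2c (8.29, 101, 142, 31.3 and 8.19 CPM in WT) and Retnla, a product of alternatively activated macrophages and of lung (6.01, 35.2, 25.4, 15.5 and 11.7 CPM), were highest in the same 2 hearts. Both had calls that were lost without R502W control 1, 2 or 3, and that of Ighg2c also without R502W control 4. Cd79b, of B cells, had a call (edgeR adjusted p = 0.0496) that was lost in 10 of 13 left-out runs, all but those without WT control 1 or 5 or R502W mavacamten 4. Syn3, a synapsin, read 6.31, 33.8, 4.23, 7.08 and 6.37 CPM in WT, and its log2 fold change of -2.15 ± 0.58 went to -1.24 without WT control 2. The call of Syn3 was lost without each R502W control library and in the fit of only the 9 controls. The part of airway and lymphoid tissue in other falls was not tested.

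Across 14990 genes the fold change rose with the exonic length of the gene (Spearman rho 0.344, a description across genes, which are not independent). In the shortest of 4 equal classes of genes, with a median length of 1804.5 bases, 2.19% rose and 6.75% fell. In the longest class, with a median of 8997 bases, 20.2% rose and 1.44% fell. Measured within each library, long genes stood lowest against short genes in WT control 2, at -0.69 on the log2 scale between the 90th and the 10th percentile of length. The other WT libraries ran from -0.19 to -0.05 and the R502W libraries from 0.03 to 0.21. Without WT control 2 the rho was 0.282 and the median change of the longest class 0.10 in place of 0.18. Giant sarcomere genes such as Ttn and Neb, the calcium channel gene Ryr2, collagens and basement membrane genes are long. Ribosomal protein genes are short. With each library's trend removed, 778 genes rose and 529 fell, and 1062 of the 1856 calls, 57.2%, were kept. Neb, Map4, Insr, Notch1, Cspg4, Hspa4l and Plec kept their calls at smaller log2 fold changes of 0.63, 0.31, 0.38, 0.26, 0.38, 0.38 and 0.76. What sets the trend was not tested.

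**Figure D5:**
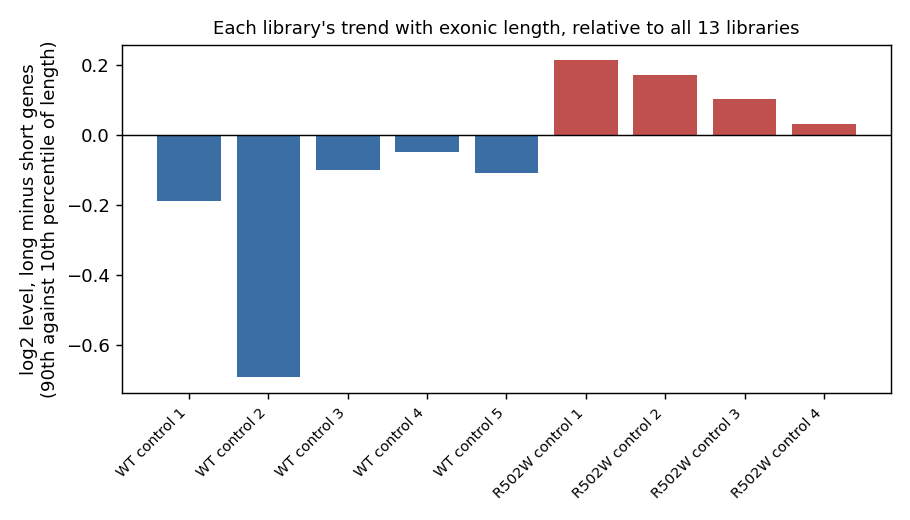
Trend of each library with exonic gene length, as the log2 level of genes at the 90th percentile of length minus that at the 10th percentile, relative to the mean of all 13 libraries. Blue bars are WT control and red bars R502W control libraries. All WT bars lie below 0 and all R502W bars above it, with WT control 2 lowest at -0.69.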

How the data were processed

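The 13 libraries share 1 table of expected counts by Ensembl gene ID, estimated and deposited by the authors with RSEM, per the submitters' processing notes. These notes also name cutadapt, FastQC, DESeq2 and the build GRCm38. The sources used here give no versions, no aligner and no strand setting for the counting. Of all values 5.76% were fractional, and expected counts were rounded to whole numbers. Symbols, coordinates and exonic lengths came from GENCODE annotation of GRCm38 for 55230 of 55471 IDs.

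Counts were analysed in R 4.3.3 with edgeR 4.0.16: filterByExpr (minimum count 10, minimum total 15) left 15000 genes, TMM factors scaled the libraries, and the quasi-likelihood fit gave each of the 3 groups its own mean over the 13 libraries. The contrast was R502W control minus WT control, with Benjamini-Hochberg adjustment over all genes tested and a threshold of 0.05. Each SE was derived as the absolute log2 fold change over the square root of the F statistic of edgeR's test. The biological coefficient of variation was 0.232 and the median SE of a log2 fold change 0.15. No pair of libraries within a group agreed within sampling noise (chi-square per degree of freedom of at least 7.60), so every library was kept. On simulated counts of this comparison with 200 of 15000 genes changed, edgeR found 25.4% of the genes with a 1.5-fold change. It found 78.6% of those with a 2-fold change and 91.0% of those with a 4-fold change. Of its calls on these counts, 2.94% were genes left as they were. The share of wrong calls in the measured libraries was not tested.

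The members, the gene lists and the rule for named genes were chosen with earlier results of these data known. The rule took fixed cardiac genes, the 12 genes per direction with the smallest p and the 12 with the largest fold among called genes of at least 5 CPM without overlap, up to 4 called members per list and direction, and isoform partners. Some genes that the rule gives are not reported here. Myom1, Ttn, Hlf, Bhlhe41 and Bmp10 were chosen after their values were seen.

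Alternatives were RLE and upper quartile factors, DESeq2 1.42.0, other filters on low counts, robust dispersion, other sets of libraries, a replicate block, and offsets that remove each library's trend with exonic length (lowess span 0.3 on log2 CPM with a prior count of 2). Promoters and microRNAs came from RefSeq tables of GRCm38.p6.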

Additional observations from a re-analysis of the deposited data

Results flagged for a closer look

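For each named gene the 5 WT and the 4 R502W libraries were searched for 1 library far from the rest of its group. This marked 22 of 306 pairs of a gene and a group, and chance marks about 1 in 20.

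WT control 2 stood alone in 11 of the 22. It was lowest among WT libraries in Sgcd (3.60 CPM), Kif5b (44.5 CPM), Tead1 (63.5 CPM), Amotl1 (52.9 CPM), Myocd (11.5 CPM), Irs1 (3.18 CPM), Insr (77.5 CPM) and Clock (18.6 CPM). The same library was highest in Rps6 (351.9 CPM), Tspan4 (59.3 CPM) and Syn3 (33.8 CPM). WT control 1 was lowest in Mmp14 (16.2 CPM).

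In the R502W group, R502W control 3 was highest in the integrin subunit Itga5 (72.7 CPM), the tubulin carboxypeptidase Vash1 (16.7 CPM), the matrix protein Cilp (88.2 CPM) and the clock repressor Nfil3 (16.3 CPM). R502W control 4 was lowest in Kif5b (162.5 CPM), Myocd (47.0 CPM) and the chaperone Hspa4l (60.2 CPM). R502W control 1 was lowest in Ppp1r3c (103.3 CPM) and in the atrial factor Bmp10 (1.57 CPM), and highest in the coactivator Ppargc1b (31.9 CPM).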

How the results depend on the processing

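The 1294 higher and 562 lower genes became 569 and 253 with WT control 2 and 3 and R502W control 1 left out and the treated libraries kept, an alternative chosen after seeing the data, and 762 of the 1856 calls were kept. With only the controls and the same 3 left out, 791 rose. Without a filter on low counts 843 rose, with the length trend removed 778 rose, and DESeq2 called 1069 genes lower. Leaving out 1 library at a time gave 603 to 1266 higher and 208 to 756 lower genes.

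Over all calls, the share kept in such a run went from 45.7% without R502W control 2 to 87.8% without WT control 5. It was 54.7% without R502W control 1 and 48.3% without R502W control 3. Named genes were picked in part by small p or large fold, so their calls do not stand for all calls. Of the 148 called genes named, 129 kept their call in all 13 such runs. Of the 148, 14 lost their call with the length trend removed and 27 with the 3 libraries left out. The latter were Mybpc3, Tnni1, Itga5, Synm, Vash1, Dsp, Ednra, Fgf16, Kdr, Fos, Sox4, Cilp, Thbs4, Efemp1, Herpud1, Mthfd1l, Rbm3, Ucp2, Jph2, Ryr2, Cyp2f2, Scgb1a1, Bpifa1, Ighg2c, Retnla, Cd79b and Sox10. No named gene lost its call with RLE factors or with DESeq2. With the same 3 libraries left out the count of risen genes also went from 12 to 6 for costamere genes, from 6 to 3 for microtubule and intermediate filament genes, from 12 to 7 for other matrix genes, from 9 to 5 for chaperones, from 5 to 1 for immediate early factors, from 5 to 2 for insulin signalling, from 5 to 2 for calcium cycling, from 7 to 4 for adrenergic genes and from 7 to 3 for glucose handling. Nppa, not called, turned from 0.13 to -0.01 without WT control 1 and to -0.11 without R502W control 2, and its values with 1 library left out ran from -0.11 to 0.28.

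Sample numbers recur in both groups, but same-numbered libraries deviated with correlations of -0.32 to -0.02, so the numbers do not pair them. With the number as a replicate block 742 genes rose and 221 fell. Low depth limits genes near 1 CPM, such as Fgf6 and Adamts4.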
